A study of Mus musculus with 2 samples.

Results

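A set of 10 genes of JAK-STAT5 signalling and its feedback was followed in cultured mouse mast cells after knockdown of GATA1. They are the kinase gene Jak2, the transcription factor genes Stat3, Stat5a and Stat5b, the feedback inhibitor genes Socs1, Socs2, Socs3 and Cish, and the kinase genes Pim1 and Pim2. The members were chosen by name: every non-control probe that the array annotation assigns to 1 of these 10 symbols, which gave 15 probes at 33 spots, out of 55659 probes for 35010 named genes or loci. All 15 probes were well above background on both arrays, as were probes of 20524 genes in all.

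The study measured 2 RNA pools on 2 one-colour (Cy3) arrays. The GATA1 siRNA array carried RNA of bone marrow-derived mast cells transfected with 200 pmol of an siRNA against GATA1, and the control siRNA array carried RNA of such cells given 200 pmol of a control siRNA. Both groups were grown from marrow of C57BL/6 mice, with no age given, first in 10 ng/mL interleukin 3 (2 weeks), after which 10 ng/mL stem cell factor was added to it (2 weeks), so every cell measured had been under a cytokine that signals through JAK2 and STAT5. Each array pooled samples from 2 animals, the siRNA lowers GATA1 without deleting it, and the time from transfection to harvest is not given in the sources used here. Since each group is 1 array, differences could not be set against a spread between replicates, and no p-value is given.

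In this pathway a cytokine draws its receptor chains together, the JAK kinases bound to them phosphorylate each other and the receptor, and STAT proteins dock there, are phosphorylated, pair and enter the nucleus. Among the genes that STAT5 induces are Cish and the Socs genes, whose products bind phosphorylated receptors or kinases and end the signal, and the Pim genes, which encode survival kinases that need no activating phosphorylation. In mast cells interleukin 3 signals through JAK2 and STAT5, and the STAT5 proteins are needed for mast cell growth and survival. An array of this kind reads transcript levels and says nothing of phosphorylation.

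The promoter windows that carry the binding motif of paired STAT proteins are shown first, since the feedback genes are known as STAT targets. RefSeq windows of 300 bases (GRCm38.p6, 250 before to 50 after a transcript's start) were given for 9 of the 10 members in 12 windows, and Socs2 was not searched. The motif TTCNNNGAA, which reads the same on both strands, occurred in the windows of 2 members, and 8.30% of all 32851 windows hold it. Cish had it 2 times, as 0.457% of all windows have it at least 2 times, and Socs3 had it 1 time. The capitals mark the motif; the Cish window is chr9:107296409-107296708 on the plus strand and the Socs3 window is chr11:117969317-117969616 on the minus strand, both written 5′ to 3′.
Cish: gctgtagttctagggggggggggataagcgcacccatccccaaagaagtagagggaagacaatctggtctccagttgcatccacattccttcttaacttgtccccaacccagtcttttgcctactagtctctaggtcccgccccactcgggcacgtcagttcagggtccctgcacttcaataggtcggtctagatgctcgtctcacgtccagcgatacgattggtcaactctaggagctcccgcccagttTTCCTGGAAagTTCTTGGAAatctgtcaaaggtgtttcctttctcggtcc
Socs3: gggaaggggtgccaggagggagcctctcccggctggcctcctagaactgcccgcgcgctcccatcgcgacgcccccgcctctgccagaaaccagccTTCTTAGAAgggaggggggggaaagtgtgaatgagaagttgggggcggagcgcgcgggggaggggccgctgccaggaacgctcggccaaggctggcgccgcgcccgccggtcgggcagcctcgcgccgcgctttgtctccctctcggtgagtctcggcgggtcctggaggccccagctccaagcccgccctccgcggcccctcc
In Cish the first motif begins at the annotated start and the second 11 bases after it, and in Socs3 the motif begins 154 bases before the start. The GATA motif was searched on both strands as any of AGATAA or its variant AGATAG, and likewise TGATAA or its variant TGATAG. None of the 12 windows held it, and 29.8% of all windows do. These are matches of letters in short windows and do not show where a factor binds.

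Signals below are processed signals in scanner units, and a difference is the log2 signal of the GATA1 siRNA array minus that of the control siRNA array after each was divided by its array's 75th percentile (340.0 and 303.2). A gene counted as past the size rule at a difference of 1.5-fold, 0.585 on the log2 scale. The error given beside a difference comes from the scanner software's own, which covers the spots and not the cells or animals. For probes printed 10 times the errors of the spots were combined as if independent. That gives a smaller value, 0.06 for the Socs2 and Stat3 probes concerned. Gata1, the targeted gene, had a signal of 3930 on the GATA1 siRNA array and 16415 on the control siRNA array, a difference of -2.23 (4.68-fold lower), in the direction its label gives. None of the 10 members and none of their 15 probes passed 1.5-fold, where 4.60% of the 20524 genes did (1.83% higher and 2.77% lower on the GATA1 siRNA array) and 5.11% of the 28736 measured probes did (1.92% higher and 3.19% lower). With the measured genes split into deciles of signal, the share past 1.5-fold was lower in the deciles that hold members. It ran from 0.58% (the decile of Socs1 and Cish) to 2.78% (that of Pim2). The members lay between -0.34 (Socs2) and 0.51 (Socs3). Their median was 0.10 and that of all measured genes was 0.01. In this scaling 9 of 10 members and 52.7% of all measured genes were above 0. After scaling to spike-in controls 5 of 10 members were above 0, among them Socs1 at only 0.0012. The share of all measured genes above 0 was not counted in that scaling. The medians were then -0.02 for the members and -0.11 for all measured genes.

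**Figure D1:**
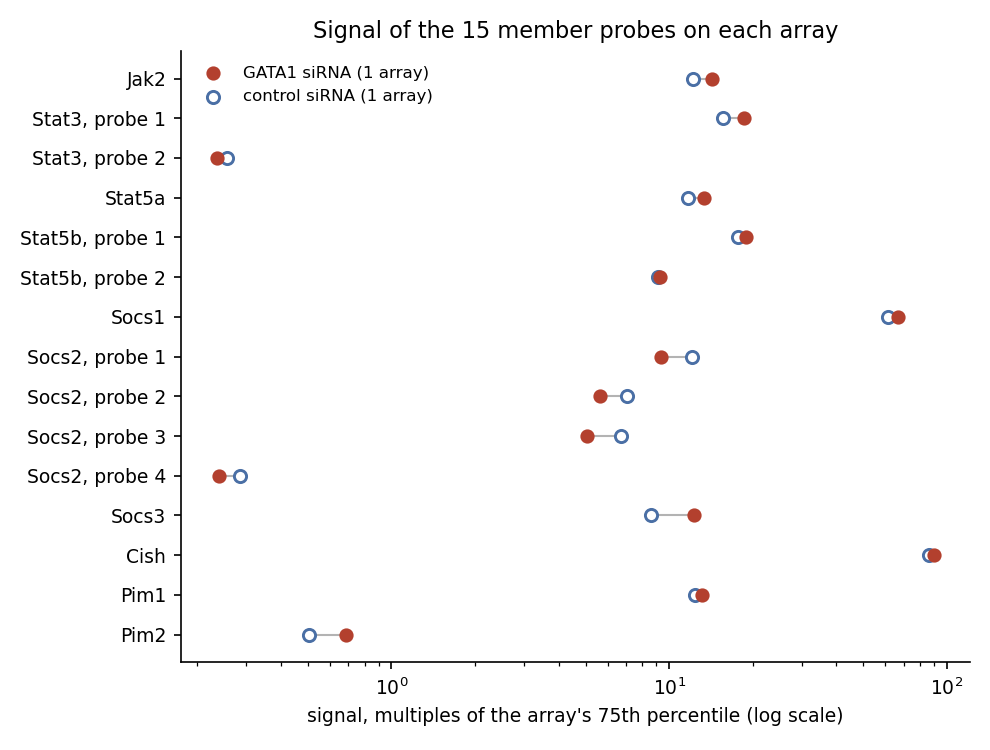
Signal of each of the 15 member probes as multiples of the array's 75th percentile (log scale), with the GATA1 siRNA array as filled points and the control siRNA array as open points, 1 array each; probes of a gene are numbered from the brightest. The pairs lie close together for most probes, with the GATA1 siRNA point left of the control siRNA point at all 4 Socs2 probes and right of it at Socs3 and Pim2.

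Jak2 encodes the kinase bound to the shared beta chain of the interleukin 3 receptor. Its probe (chromosome 19, 29387487 to 29387546, plus strand; all probe coordinates are mm9, as the array annotation gives them) had a signal of 4852 on the GATA1 siRNA array and 3696 on the control siRNA array. The difference was 0.23 with a scanner error of 0.20, and 2607 of the 20524 measured genes lay higher. The value is well short of 1.5-fold. It is slightly larger than the error of the spots as reported, but smaller with quantile scaling (0.17), loess (0.17) or spike-in scaling (0.11).

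Stat5a and Stat5b encode the closely related STAT5 proteins and lie side by side with Stat3 on chromosome 11, where the probes of these 3 genes span 118.0 kb. Stat5a had a signal of 4524 on the GATA1 siRNA array and 3536 on the control siRNA array, a difference of 0.19 with an error of 0.20 (probe at 100746373 to 100746432, plus strand). Stat5b had 2 probes on the minus strand, at 100642045 to 100642104 and at 100642187 to 100642246. The brighter had 6435 on the GATA1 siRNA array and 5365 on the control siRNA array, and the other had 3158 and 2754 on the same arrays, with differences of 0.10 and 0.03. All 3 differences of the STAT5 genes were smaller than their scanner error as reported, though that of Stat5a was larger with normexp (0.21) and with the authors' scaling (0.25). The nearest other genes with probes were Ghdc, with a difference of 0.03, and Cavin1, with -0.07.

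Stat3 encodes the factor that answers the interleukin 6 family and is known to induce Socs3. One of its probes, at 100749598 to 100749657 on the minus strand, was printed 10 times on each array. Its lowest, median and highest signals were 6215, 6340 and 6444 on the GATA1 siRNA array, against 4608, 4753 and 4893 on the control siRNA array. The scaled spots of the arrays did not overlap, and the difference was 0.25 with an SD of 0.02 over the 10 spots. Of the 179 measured probes with 10 usable spots, 35.8% had no overlap between the arrays, 27.9% with the GATA1 siRNA spots higher, so spots of 1 probe separate the 2 arrays often. The second Stat3 probe, 10.3 kb away at 100759946 to 100760005, was dim, with 79.8 on the GATA1 siRNA array and 77.5 on the control siRNA array, and its difference was -0.12 with an error of 0.22. Because the 2 probes differ in sign, the gene mean of 0.06 describes neither.

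Socs2 was the only member below 0 and the one with the most probes. SOCS2 is best known as the brake on growth hormone signalling, and its gene is a STAT5 target. The probe at chromosome 10, 94875066 to 94875125 on the minus strand was printed 10 times, with lowest, median and highest signals of 2981, 3196 and 3369 on the GATA1 siRNA array, against 3442, 3692 and 3855 on the control siRNA array. The scaled spots did not overlap, as in 7.82% of the 179 probes in this direction, and the difference was -0.37 with an SD of 0.05 over the 10 spots. A second probe, at 94875187 to 94875246, had 1910 on the GATA1 siRNA array and 2136 on the control siRNA array (-0.33). Another, at 94875468 to 94875527, had 1716 and 2032 on the same arrays (-0.41). The fourth, 27.0 kb away at 94848005 to 94848064 and annotated to a separate transcript model, was dim at 81.5 on the GATA1 siRNA array and 86.0 on the control siRNA array (-0.24). All 4 differences were below 0 in every setting run. As reported each was larger than its scanner error (0.06 to 0.22), but the dim probe lay inside its error with normexp (-0.17), quantile (-0.20), loess (-0.20) and the authors' scaling (-0.18). The SD between the 4 probes was 0.07. The probes share 1 RNA pool per array, so they repeat the measurement and not the experiment. The gene mean was -0.34, a 1.26-fold lower level, and 1819 of the 20524 measured genes lay lower, 69 of them among the 2053 genes in the same decile of signal. That decile rests on the mean level of all 4 probes, which the dim probe lowers.

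The probe letters show what the hybridisation reads. The Socs2 probe with the lowest difference is given here as printed on the array, and it has 1 reading frame without a stop codon.
Socs2 probe: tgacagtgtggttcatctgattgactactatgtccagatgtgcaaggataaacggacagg

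**Figure D2:**
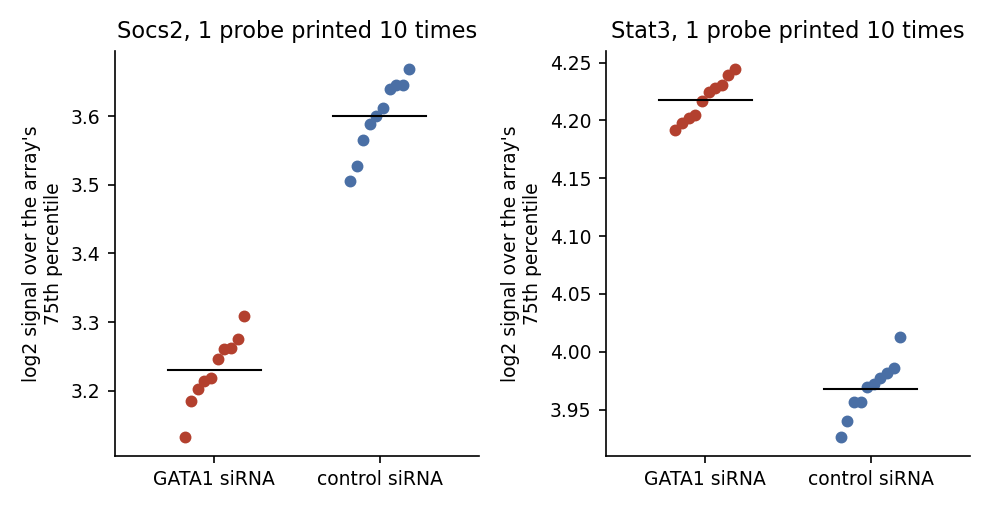
Log2 signal over the array's 75th percentile for the 10 printed spots of 1 Socs2 probe and 1 Stat3 probe, with the GATA1 siRNA array left of the control siRNA array, spots sorted by value and the mean as a line. The spots of the arrays do not overlap for either probe, at a difference of -0.37 for Socs2 and 0.25 for Stat3; the vertical axes do not start at 0.

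Socs3 had the highest difference of the 10 members. SOCS3 binds the receptor chain of the interleukin 6 family and the JAK bound to it. Its single probe, at chromosome 11, 117827480 to 117827539 on the minus strand, had 4187 on the GATA1 siRNA array and 2614 on the control siRNA array. The difference was 0.51 with a scanner error of 0.20, a 1.43-fold higher level. Of all measured genes 542 lay higher, 26 of them among the 2052 genes in the same decile of signal. Its value sits below the 1.5-fold rule and just inside the central 95% of all measured genes (-0.62 to 0.52).

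The other feedback genes were bright and nearly level between the arrays. Socs1, whose product blocks the JAK active site and restrains interferon signals, had 22712 on the GATA1 siRNA array and 18602 on the control siRNA array, a difference of 0.12 (chromosome 16, 10783951 to 10784010, minus strand). Cish, the most direct of the STAT5 feedback genes, had 30559 on the GATA1 siRNA array and 26274 on the control siRNA array, a difference of 0.05 (chromosome 9, 107204196 to 107204255, plus strand). Both differences were below the scanner error of 0.20. The 4 feedback genes thus ranged from -0.34 through 0.05 and 0.12 to 0.51, with Cish below 0 after scaling to quantiles or spike-ins. Cish and Socs3, which hold the STAT motif in the windows shown above, stood at 0.05 and 0.51, Socs1 without it at 0.12, and Socs2 was not searched.

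Pim1 and Pim2 encode related serine and threonine kinases that favour survival and growth under cytokines. Pim1 had 4453 on the GATA1 siRNA array and 3758 on the control siRNA array, a difference of 0.08 with an error of 0.20 (chromosome 17, 29630740 to 29630799, plus strand). The Pim2 probe was dim, with 232.7 on the GATA1 siRNA array and 153.4 on the control siRNA array, and its difference was 0.44 with an error of 0.21, a 1.35-fold higher level. Of the 2052 genes in the same decile of signal, 75 lay higher than Pim2.

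Pim2 is a neighbour of the targeted gene: its probe, at chromosome X, 7459678 to 7459737 on the plus strand, lies 76655 bp from the Gata1 probe. Between them the annotation places Slc35a2, Pqbp1, Timm17b, Pcsk1n, Eras and Hdac6. Hdac6, a cytoplasmic deacetylase, had 1544 and 1492 at its 2 probes on the GATA1 siRNA array and 913 and 943 on the control siRNA array, with differences of 0.59 and 0.50. The measured probes of Slc35a2 (-0.18 and 0.05), Pqbp1 (0.15 and 0.35), Timm17b (0.05 and 0.13) and Pcsk1n (-0.28) lay between these and 0 or below it, and Eras was not well above background on either array. Among the measured probes between Pim2 and Gata1, that of Pcsk1n and the lower of Slc35a2 lay below 0 and the others above it. Hdac6, the nearest of these genes to Gata1, lay above 0 at both probes. An effect of position was not tested.

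**Figure D3:**
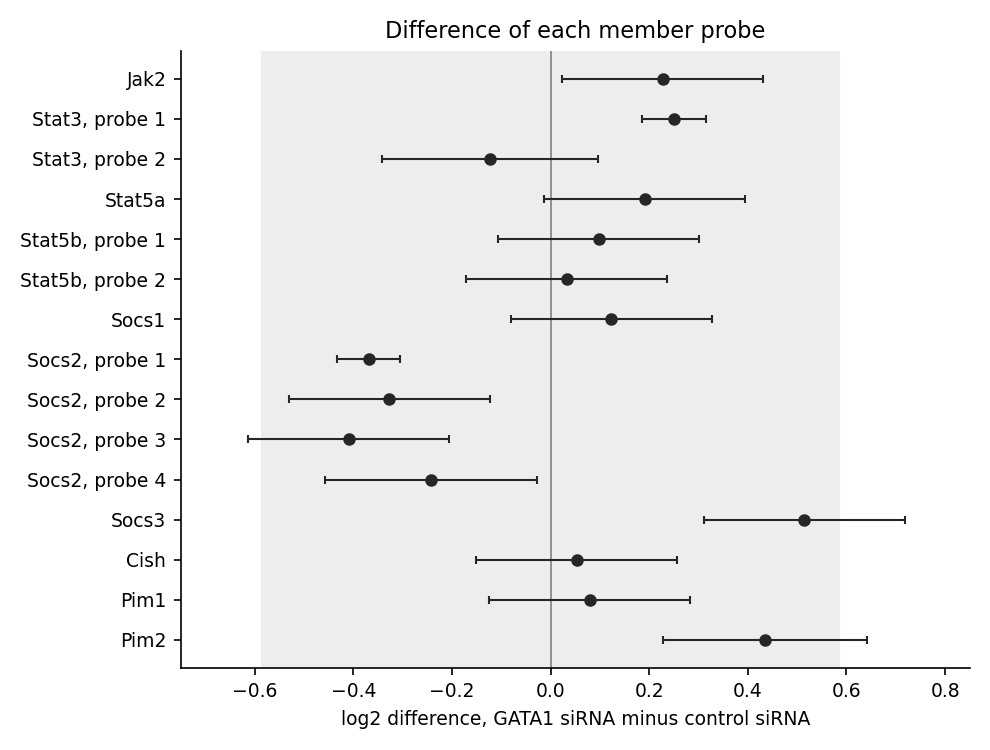
Log2 difference of each of the 15 member probes, GATA1 siRNA minus control siRNA, with the scanner software's error as bars (spots only, 1 array per group) and the range within 1.5-fold shaded. Every point lies inside the shading; the 4 Socs2 points lie between -0.41 and -0.24, and Socs3 and Pim2 at 0.51 and 0.44.

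Other genes of the pathway were read from lists with all members measured. None of the 7 other JAK and STAT genes passed 1.5-fold, all 7 were above 0 (4 after scaling to spike-in controls), and their median was 0.17. Stat4, which encodes the interleukin 12 factor, had 4480 on the GATA1 siRNA array and 3351 on the control siRNA array, a difference of 0.25 with a scanner error of 0.20. The bright end of the array was itself slightly above 0: genes in the decile of signal that holds Jak2, Stat5a, Stat5b, Socs3 and Pim1 had a median of 0.06. The signs of the smaller list values therefore rest on the scaling, as described in the closing section.

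Of 16 other negative regulators, 1 was at least 1.5-fold lower, none was higher, and the median was 0.09. The lower gene was Ptpn2, the T cell phosphatase, which removes phosphate from JAK1, JAK3 and STAT proteins. Its 3 probes had 4396, 723.0 and 148.1 on the GATA1 siRNA array, against 6185, 1048 and 235.4 on the control siRNA array. The 3 differences were -0.66, -0.70 and -0.83, all larger than their scanner errors of 0.20 to 0.21, and the gene mean was -0.73, a 1.66-fold lower level. The highest value on this list was 0.55 at Cbl, a ubiquitin ligase that acts on activated receptors and kinases. It came from 1 dim probe, with 133.2 on the GATA1 siRNA array and 81.1 on the control siRNA array (scanner error 0.21).

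Of 16 cytokine receptor genes, 1 was at least 1.5-fold lower and none was higher, with a median of 0.03. The lower gene was Epor, the erythropoietin receptor, which signals through JAK2 and STAT5 in red cell precursors and is a classic GATA1 target. It was dim, with 53.3 on the GATA1 siRNA array and 142.4 on the control siRNA array (-1.58, scanner error 0.22). The receptors for the cytokines in the culture medium stood near 0, with Kit at 0.03, Il3ra, the interleukin 3 receptor alpha chain, at -0.10 and Csf2rb, the shared beta chain, at 0.0044.

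Of 13 other genes reported as STAT5 targets, 1 was at least 1.5-fold higher and none was lower, and the median was 0.19. The higher gene was Bcl6, a transcriptional repressor that STAT5 is reported to repress, with 695.5 on the GATA1 siRNA array and 352.6 on the control siRNA array. Its difference was 0.81 with a scanner error of 0.20, a 1.76-fold higher level from 1 probe. Over the 4 lists 3 of 52 genes passed the rule, which is 5.77%, against 4.60% of all measured genes. Those 3 still passed with normexp background correction, where 111 measured genes were higher and 159 lower by 1.5-fold.

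**Figure D4:**
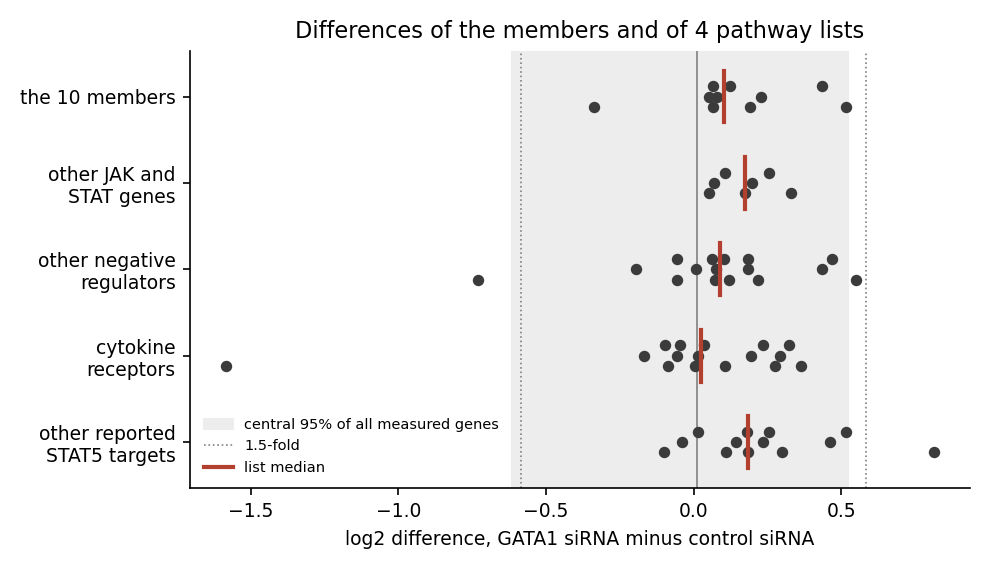
Log2 difference (GATA1 siRNA minus control siRNA) of each gene among the 10 members and in 4 lists of other pathway genes, with list medians as red bars, the central 95% of all measured genes shaded and 1.5-fold as dotted lines. Ptpn2 (-0.73), Epor (-1.58) and Bcl6 (0.81) lie outside the dotted lines, and no member does.

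Markers of the labelled cells and of others were read on the same arrays. All 11 mast cell markers were well above background on both arrays, with 7 of 11 below 0 and a median difference of -0.07 (-0.88 to 0.04). The lowest were the mast cell protease gene Mcpt4 at -0.88, past 1.5-fold, and the tryptase gene Tpsb2 at -0.53. Summed scaled signals of the mast cell markers were 2889 on the GATA1 siRNA array and 3201 on the control siRNA array, in multiples of the 75th percentile. All 9 neutrophil markers were above 0 (0.33 to 1.01), with sums of 122.3 on the GATA1 siRNA array and 82.0 on the control siRNA array. All 7 macrophage markers were above 0 (0.02 to 1.09), with sums of 59.0 and 34.8 on the same arrays. All 4 basophil markers were above 0 (sums of 216.1 and 184.8), and 4 of 5 eosinophil markers were below 0 (sums of 16.6 and 24.0). Both measured lymphocyte markers were below 0, and of the erythroid markers Klf1 was not well above background and Hba-a1 stood at 0.69. After scaling to spike-in controls the lowest macrophage and basophil values lay below 0. All 11 mast cell markers then lay below 0 as well, since the shift of -0.12 exceeds in size their highest value, 0.04. These lists move with the same contrast as Socs3, Pim2 and Socs2, and their part in those values was not tested. In a bulk RNA pool fewer cells of a type and less RNA per cell cannot be told apart.

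**Figure D5:**
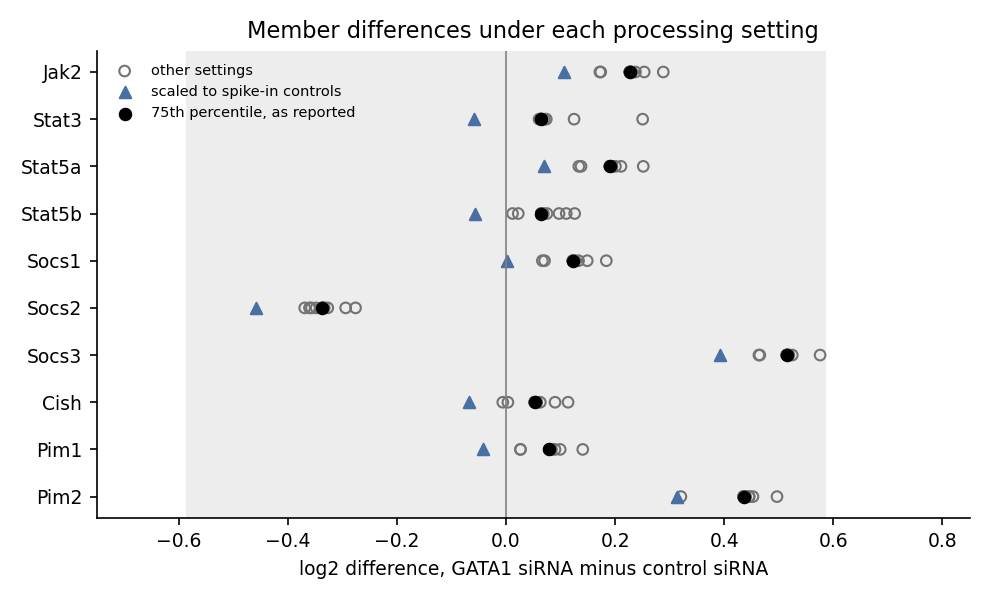
Log2 difference of each of the 10 members (GATA1 siRNA minus control siRNA, mean over measured probes) as reported, under 11 other settings and after scaling to the spike-in controls, with the range within 1.5-fold shaded. Socs2 stays below 0, and Jak2, Stat5a, Socs1, Socs3 and Pim2 above 0 in all of these settings, whereas Stat3, Stat5b, Cish and Pim1 lie on both sides of 0. Socs1 is above 0 by only 0.0012 after scaling to the spike-in controls.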

How the data were processed

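Total RNA of both groups (100 ng each) was labelled with Cy3, per the labels' protocols. The deposited signals are intensity values from Agilent Feature Extraction 10.7.3.1, background-subtracted and detrended within each array by the authors, per the file headers, with surrogate values for dim spots and no scaling between arrays. The authors' table of normalized intensity equals each array's processed signal over its own median, found by matching the values, and served as an alternative. Control spots and spots called outliers (133 on the GATA1 siRNA array and 117 on the control siRNA array) were left out, repeated spots averaged on the log2 scale, and each array divided by its 75th percentile. A probe counted as measured if both arrays called it well above background and neither called it saturated. Of 55659 probes, 27225 were named by accession and 3580 by symbol from RefSeq (GRCm38.p6), and 24854 kept the file's name. A gene is the mean of its measured probes. Groups came from the transfection label. The calculations were tested on simulated data (Python 3.11.15, pandas 2.3.3).

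Each group is 1 array, whose number limits the precision, so a rule of size (1.5-fold) replaced a test. The members and lists were chosen with earlier results of these data known. Named are all members, Gata1, every list gene past 1.5-fold, otherwise the 2 farthest from 0, and neighbours of Pim2 and of the Stat genes; Cbl, Kit, Il3ra, Csf2rb, Mcpt4 and Tpsb2 were named after their values were seen. Some genes that this rule or the marker lists name, and 1 probe sequence, are not reported here. Alternatives were normexp with offset 50 (limma 3.58.1, R 4.3.3), scaling by the median of measured probes, quantiles, loess (span 0.4) or the authors' table, no or a stricter filter on dim probes (4 times the lowest signal called), outlier spots kept, marked spots left out (at least 2 of 14 neighbouring positions differing 4-fold), the brightest or median probe of a gene, and a 2-fold rule. Scaling to spike-in control probes was chosen after seeing the data.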

Additional observations from a re-analysis of the deposited data

How the results depend on the processing

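No member passed 1.5-fold under any of the 13 alternatives, which include a 2-fold rule, and Socs2 (-0.46 to -0.28), Socs3 (0.39 to 0.58) and Pim2 (0.31 to 0.50) kept their signs. Not all of these could change the outcome. A 2-fold rule cannot add a call, and the filters on dim probes left every member value as it was. The choice of probe cannot alter the 7 members with a single probe, Socs3 and Pim2 among them. Scaling to 8 spike-in control probes shifts every difference by -0.12. It uses their median, 0.29 higher (log2) on the GATA1 siRNA array, while single spike-in probes ran from 0.08 to 0.35. Signs of values near 0 after this scaling therefore rest on the choice of that median. The median of all measured genes then stood at -0.11 and that of the members at -0.0204, the 10-spot probes at -0.49 (Socs2) and 0.13 (Stat3), and the lists at 0.0529 (other JAK and STAT genes), -0.0333 (negative regulators), -0.10 (receptors) and 0.0637 (STAT5 targets). Stat3 (-0.06), Stat5b (-0.06), Cish (-0.07) and Pim1 (-0.04) then lay below 0, and Cish stood at -0.006 with quantile scaling. Ptpn2 (-0.85 to -0.63) and Bcl6 (0.69 to 0.88) stayed past 1.5-fold, as did Epor, at -0.99 with another background correction and -1.71 at the other end.

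Of all measured genes 376 were higher and 569 lower by 1.5-fold (39.8% higher). The split was 490 and 425 with loess (53.6% higher), 511 and 451 with the authors' scaling (53.1%) and 207 and 997 with spike-ins (17.2%). The counts were 111 and 159 with normexp, 1809 and 2765 without a filter, 176 and 212 with the stricter filter and 60 and 125 by the 2-fold rule. No paired analysis was possible because each group is 1 array. Dim probes, such as those of Pim2 and Epor, are limited by their signal over background.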
